A study of Mus musculus with 12 samples.

Results

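The 9 genes described here encode ligands of the TNF superfamily that T cells can make: Cd40lg (CD40 ligand), Tnfsf8 (CD30 ligand), Tnfsf11 (RANKL), Tnfsf14 (LIGHT), Tnf (tumor necrosis factor), Lta and Ltb (the lymphotoxins), Tnfsf10 (TRAIL) and Fasl (Fas ligand). They were taken by gene symbol. All 9 were found among the 55401 genes of the deposited tables, and all 9 passed the filter on low counts that left 12015 genes to be tested. Polyadenylated RNA was sequenced from 2 CD4 T cell populations of the spleen, both from C57BL/6 mice on day 21 after infection with Leishmania donovani, a protozoan that infects macrophages of the spleen and liver. One of them, named TLCP in this text, was sorted as LAG-3+ CXCR5+ cells of low or intermediate PD-1. The other was T follicular helper cells (Tfh), sorted as CXCR5+ PD-1hi and, per the series description, mostly from germinal centers. Each had 6 libraries, numbered 1 to 6, and the series description gives 6 mice. Every mouse was infected, so the comparison is between sorted populations and not with uninfected animals.

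TNF superfamily ligands are mostly trimeric membrane proteins that bind receptors of the matching TNF receptor superfamily on neighboring cells. Some are also released by proteolysis, and lymphotoxin alpha is secreted. On CD4 T cells, CD40 ligand is the helper signal through which B cells enter and stay in germinal centers. Other members keep lymphoid tissue organized, drive inflammation or trigger death of the receptor-bearing cell.

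The libraries held 6939770 to 12688306 reads on genes. Levels are given as CPM, counts per 1000000 reads after TMM scaling, which corrects for RNA composition. A count of 0 in a library allows up to 3 counts, and this covers counting error only. Before TMM scaling, 3 counts came to 0.236 to 0.432 per 1000000 reads. Pdcd1, the gene of PD-1, by which the sorts differed, measured 36.6 ± 4.60 CPM in TLCP and 318 ± 34.8 CPM in Tfh (SD, n = 6 each). Lag3, named for the TLCP sort alone, was at 189 ± 31.2 and 40.5 ± 11.1 CPM. Cxcr5 was lower in TLCP, at 277 ± 56.9 and 849 ± 78.2 CPM, although both populations were sorted as CXCR5+. Cd4 stood at 666 to 779 CPM in TLCP and 890 to 1020 CPM in Tfh, and Cd3e at 471 to 552 and 492 to 541 CPM. Transcripts of other cells were unequal between the populations. The summed level of 10 B cell genes was 520 to 2172 CPM in TLCP and 276 to 712 CPM in Tfh, with 8 of the 10 called higher in TLCP. For 8 plasma cell genes it was 778 to 3409 and 154 to 309 CPM (7 of 7 tested higher), and for 8 basophil and mast cell genes 28.3 to 101 and 0.359 to 7.64 CPM (6 of 6 tested higher). Of the dendritic cell genes 2 of 3 tested were higher in TLCP (summed 7.81 to 20.9 against 0.708 to 7.01 CPM). None of the tested macrophage (4), neutrophil (3) and erythroid or platelet genes (4) was called. With the library number as a block Csf1r (1.73, adjusted p = 0.00182) and Alas2 (1.09, adjusted p = 0.0189) were called higher and Hmox1 lower (-0.54, adjusted p = 0.0252). The summed level of the macrophage genes was 37.1 to 126 CPM in TLCP and 25.7 to 98.9 CPM in Tfh. For the 8 neutrophil genes it was 4.43 to 51.9 CPM in TLCP and 0 to 49.3 CPM in Tfh. For the 8 erythroid and platelet genes it was 35.5 to 98.8 and 3.83 to 80.2 CPM. Within these lists, Ly6g, Camp and Ngp were at 0 in every TLCP library and Pf4 in every Tfh library. Immunoglobulin genes held 0.731% to 4.64% of TLCP counts and 0.110% to 0.384% of Tfh counts.

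Of the 9 ligand genes, 4 were lower in TLCP than in Tfh, namely Cd40lg, Tnfsf8, Tnfsf11 and Tnfsf14. Another 2, Tnfsf10 and Fasl, were higher, and Tnf, Lta and Ltb did not pass the test. A gene was called when its adjusted p in edgeR's quasi-likelihood test was under 0.05. Over all genes tested, 33.1% were called, 16.8% as higher and 16.4% as lower in TLCP. The levels in the 2 populations did not overlap for 5 of the 9 ligands, against 17.2% of all genes tested. The median log2 fold change (TLCP minus Tfh) was -0.38 over the 9 ligands and -0.0041 over all genes. Because these are bulk libraries, fewer cells that express a ligand and less of its RNA per cell cannot be told apart.

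**Figure D1:**
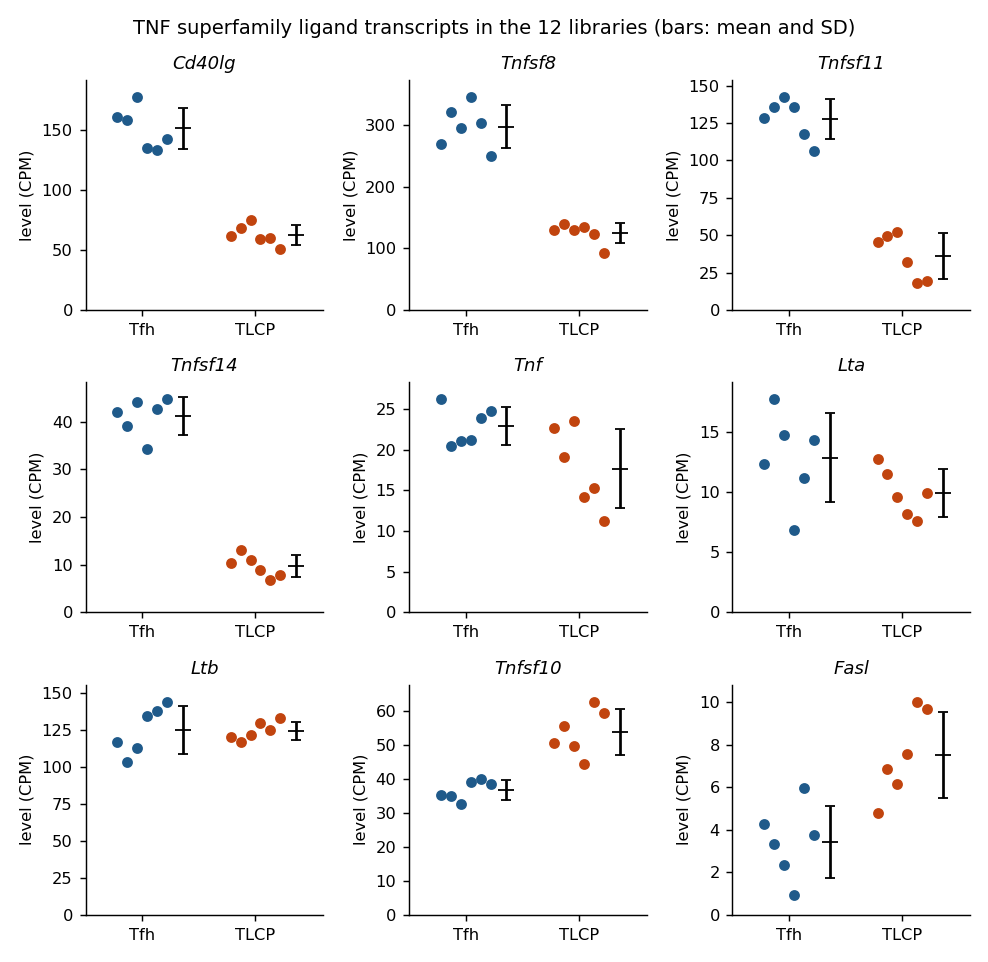
Level of each ligand transcript (CPM, linear axis from 0) in the 6 Tfh libraries (blue) and the 6 TLCP libraries (red), 1 point per library in the order of the library numbers, with the mean and SD beside them. Cd40lg, Tnfsf8, Tnfsf11 and Tnfsf14 are lower in every TLCP library than in any Tfh library, Tnfsf10 is higher in every TLCP library, and the points of Fasl, Tnf, Lta and Ltb overlap.

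The sequences just upstream of the start sites are shown for called ligands, to set the genes that differed in both directions beside each other. Sequences are from RefSeq (GRCm38.p6), and 8 of the 9 ligands were matched in the promoter table used, all but Cd40lg. The window is the 250 bases before the RefSeq start, on the strand of the gene, and position -1 is the base next to the start. Bases that GENCODE places inside the gene are not printed, which leaves 187 bases for Tnfsf8 and 201 for Tnfsf10. Capitals mark matches to the core of NFAT sites (GGAAA), the AP-1 site (TGANTCA), the GAS site of STAT factors (TTCNNNGAA), the TATA box (TATAAA) and the kappaB consensus, searched on both strands. A match on the other strand appears as its reverse complement. The windows are chr17:57194182-57194431 for Tnfsf14, chr14:78308044-78308293 for Tnfsf11 and chr4:63861348-63861534 for Tnfsf8, all 3 on the minus strand and lower in TLCP. For the ligands higher in TLCP they are chr3:27316827-27317027 (plus strand) for Tnfsf10 and chr1:161788496-161788745 (minus strand) for Fasl.
Tnfsf14: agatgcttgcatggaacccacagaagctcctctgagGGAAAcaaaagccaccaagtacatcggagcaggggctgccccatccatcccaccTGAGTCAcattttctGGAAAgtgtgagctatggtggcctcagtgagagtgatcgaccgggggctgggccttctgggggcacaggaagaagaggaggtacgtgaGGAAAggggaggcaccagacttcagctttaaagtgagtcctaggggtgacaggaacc
Tnfsf11: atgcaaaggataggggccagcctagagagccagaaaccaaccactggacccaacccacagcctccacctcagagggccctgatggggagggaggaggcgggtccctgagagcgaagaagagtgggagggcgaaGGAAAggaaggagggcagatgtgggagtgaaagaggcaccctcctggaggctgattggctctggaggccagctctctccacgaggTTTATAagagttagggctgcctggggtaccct
Tnfsf8: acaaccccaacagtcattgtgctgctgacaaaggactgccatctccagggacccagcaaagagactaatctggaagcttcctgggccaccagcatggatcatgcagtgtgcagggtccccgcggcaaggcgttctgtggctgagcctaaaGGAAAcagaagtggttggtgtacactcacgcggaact
Tnfsf10: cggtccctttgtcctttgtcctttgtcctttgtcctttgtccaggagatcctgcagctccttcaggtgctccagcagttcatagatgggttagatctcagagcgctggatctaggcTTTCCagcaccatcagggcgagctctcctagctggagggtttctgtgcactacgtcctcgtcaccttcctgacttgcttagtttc
Fasl: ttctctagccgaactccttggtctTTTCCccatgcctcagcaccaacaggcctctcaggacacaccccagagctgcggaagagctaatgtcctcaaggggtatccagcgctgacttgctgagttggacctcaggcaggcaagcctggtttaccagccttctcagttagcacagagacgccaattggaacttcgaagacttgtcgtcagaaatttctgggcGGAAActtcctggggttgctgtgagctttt

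GGAAA was present in all 8 windows, including those of ligands lower and of ligands higher in TLCP. It is a frequent string that 55.6% of the 32851 RefSeq windows hold. The AP-1 string occurred in the window of Tnfsf14, at -160, and in none of the other 7, against 6.75% of all windows. TATAAA lay at -29 in Tnf, at -167 in Lta and, on the other strand, at -32 in Tnfsf11, that is in 3 of 8 windows and 12.4% of all. The GAS string was in the windows of Ltb and Lta (7.02% of all). The kappaB consensus was in that of Ltb (3.90% of all), where it overlaps the GGAAA match. These are matches of letters in short windows and say nothing about binding.

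Cd40lg encodes CD40 ligand, which engages CD40 on B cells, dendritic cells and macrophages. The gene lies at chrX:57212143-57224042 (GRCm38, plus strand, 5 exons). It measured 61.3, 68.6, 75.1, 59.3, 59.9 and 51.0 CPM in TLCP libraries 1 to 6, and 161, 159, 178, 135, 134 and 142 CPM in Tfh libraries 1 to 6. The highest TLCP library was well under the lowest Tfh library. The means were 62.6 ± 8.31 and 151 ± 17.3 CPM (SD, n = 6 each), a 2.42-fold lower level in TLCP (log2 fold change -1.28, SE 0.092, adjusted p = 3.35e-09). At least 565 reads stood behind every value. By fold change Cd40lg ranked 270 from the lowest of the 12015 genes tested.

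Tnfsf8 encodes CD30 ligand, whose receptor CD30 is found on activated lymphocytes. The gene lies at chr4:63831308-63861347 (minus strand, 4 exons). It measured 131, 139, 130.1, 135, 123 and 92.6 CPM in TLCP and 270.1, 321, 295, 346, 303 and 249 CPM in Tfh. Again the populations were fully separate, with TLCP library 6 the lowest of all. The fold was 2.38 in favor of Tfh (log2 fold change -1.25, SE 0.095, adjusted p = 1.33e-08), close to that of Cd40lg.

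Tnfsf11 encodes RANKL, known from osteoclast formation and from lymph node and thymus organization. It lies at chr14:78277445-78308043 (minus strand, 5 exons). TLCP libraries 1 to 6 held 45.3, 49.2, 52.4, 32.1, 18.2 and 19.3 CPM, and Tfh libraries 129, 136, 142, 136, 118 and 107 CPM. All TLCP values lay below all Tfh values, and among the TLCP libraries numbers 1 to 3 lay above numbers 4 to 6. The mean was 3.55-fold lower in TLCP (log2 fold change -1.83, SE 0.27, adjusted p = 0.000394), with a 95% interval of -2.42 to -1.23 that was wider than those of the other 3 lower ligands.

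Tnfsf14 encodes LIGHT, which binds HVEM and the lymphotoxin beta receptor and costimulates T cells. The gene is at chr17:57189492-57194177 (minus strand, 4 exons). It measured 10.3, 13.2, 10.9, 8.99, 6.87 and 7.95 CPM in TLCP and 42.0, 39.1, 44.2, 34.2, 42.8 and 44.7 CPM in Tfh. Every Tfh library was above every TLCP library, and among the 9 ligands this was the lowest fold change (4.26-fold lower, log2 -2.09, SE 0.13, adjusted p = 7.47e-10). It ranked 93 from the lowest of all genes tested. Its neighbors on chromosome 17, Cd70 (39.7 kb away) and Tnfsf9, encode ligands of the same family, and Cd70 was at most 0.393 CPM in any library.

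Tnf, Lta and Ltb form a cluster at chr17:35194439-35205351, with 3060 bases between Ltb and Tnf and 1157 between Tnf and Lta. TNF and lymphotoxin alpha act as soluble trimers on the TNF receptors, and lymphotoxin beta anchors lymphotoxin alpha at the membrane to engage the lymphotoxin beta receptor. Tnf (chr17:35199381-35202007, minus strand) measured 22.6, 19.1, 23.5, 14.2, 15.3 and 11.3 CPM in TLCP and 26.2, 20.4, 21.1, 21.2, 23.9 and 24.8 CPM in Tfh. TLCP libraries 2 and 4 to 6 lay below every Tfh library, number 2 by the least, while numbers 1 and 3 lay within the Tfh range. The log2 fold change was -0.38 (SE 0.15, adjusted p = 0.0646), which missed the threshold. With the library number as a block it was -0.41 (adjusted p = 0.0308) and Tnf was called lower, with the same direction in 5 of 6 numbered pairs. It was also called without TLCP library 1 (-0.46, adjusted p = 0.0308) or 3 (-0.48, adjusted p = 0.0239). With library totals alone the Tnf value was -0.23 (adjusted p = 0.269) and on the log2(TPM + 1) scale -0.13 (adjusted p = 0.593), not called in either.

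Lta (chr17:35203165-35205351, minus strand) measured 12.7, 11.5, 9.61, 8.17, 7.56 and 9.93 CPM in TLCP and 12.3, 17.7, 14.8, 6.85, 11.2 and 14.3 CPM in Tfh. The ranges overlapped broadly, and Tfh library 4 was the lowest of all 12. The log2 fold change was -0.38 (SE 0.19, adjusted p = 0.144) with a 95% interval of -0.79 to 0.03. Without Tfh library 4 it was -0.50 (adjusted p = 0.0254). With library totals alone the Lta value was -0.22 (adjusted p = 0.432) and on the log2(TPM + 1) scale -0.05 (adjusted p = 0.885). Ltb (chr17:35194439-35196320, plus strand) measured 120.4, 117, 122, 129.5, 125 and 133 CPM in TLCP and 117, 104, 113, 135, 138 and 144 CPM in Tfh. The TLCP values lay inside the Tfh range, and the means were both 125 CPM. The log2 fold change was -0.0067 (SE 0.078, adjusted p = 0.962), with a 95% interval of -0.17 to 0.16. The sign of this value depended on the scaling: with library totals alone it was 0.17 and on the log2(TPM + 1) scale 0.29, not called in either. B cells also express Ltb, Lta and Tnf, and B cell transcripts were higher in TLCP as given above. Their part in these 3 values was not tested.

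Tnfsf10 encodes TRAIL, which can kill cells through a death receptor. The gene is at chr3:27317028-27342427 (plus strand, 6 exons). It measured 50.6, 55.5, 49.6, 44.4, 62.6 and 59.2 CPM in TLCP and 35.1, 34.8, 32.5, 39.2, 40.0 and 38.3 CPM in Tfh. The lowest TLCP library was above the highest Tfh library. The mean was 1.47-fold higher in TLCP (log2 fold change 0.55, SE 0.091, adjusted p = 0.000103).

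Fasl encodes the ligand of the death receptor Fas, and lies at chr1:161780689-161788495 (minus strand, 4 exons). It had few reads, 6 to 48 in the Tfh and 48 or more in the TLCP libraries, and measured 4.80, 6.85, 6.13, 7.56, 10.01 and 9.66 CPM in TLCP and 4.25, 3.35, 2.36, 0.955, 5.95 and 3.75 CPM in Tfh. TLCP library 1 lay below Tfh library 5, so the populations overlapped, but TLCP was higher in 6 of 6 numbered pairs. The fold was 2.16 (log2 fold change 1.11, SE 0.30, adjusted p = 0.00738). The call was lost with 3 libraries a population, at 0.83 (adjusted p = 0.0608) for numbers 1 to 3 and 1.31 (adjusted p = 0.0530) for numbers 4 to 6. It was also lost without TLCP libraries 4 and 5, which held the most immunoglobulin counts (0.98, adjusted p = 0.05001). NK and CD8 T cells are known sources of Fas ligand. Of 7 of their markers, 4 were tested, 1 was lower in TLCP (Klrb1c, log2 fold change -1.46) and none was called higher. Cd8a, at 3.12 ± 3.32 CPM in TLCP and 0.858 ± 0.994 CPM in Tfh, had a log2 fold change of 1.78 (adjusted p = 0.0814), and was called higher with the library number as a block (1.81, adjusted p = 0.00545) and by DESeq2 (1.85, adjusted p = 0.0208). Its part in the Fasl value was not tested. The summed level of the 7 markers was 12.01 to 28.6 CPM in TLCP and 18.6 to 27.1 CPM in Tfh. Klra8 was at 0 in every Tfh library and Ncr1 averaged 0.531 CPM in TLCP against 0.174 CPM in Tfh.

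**Figure D2:**
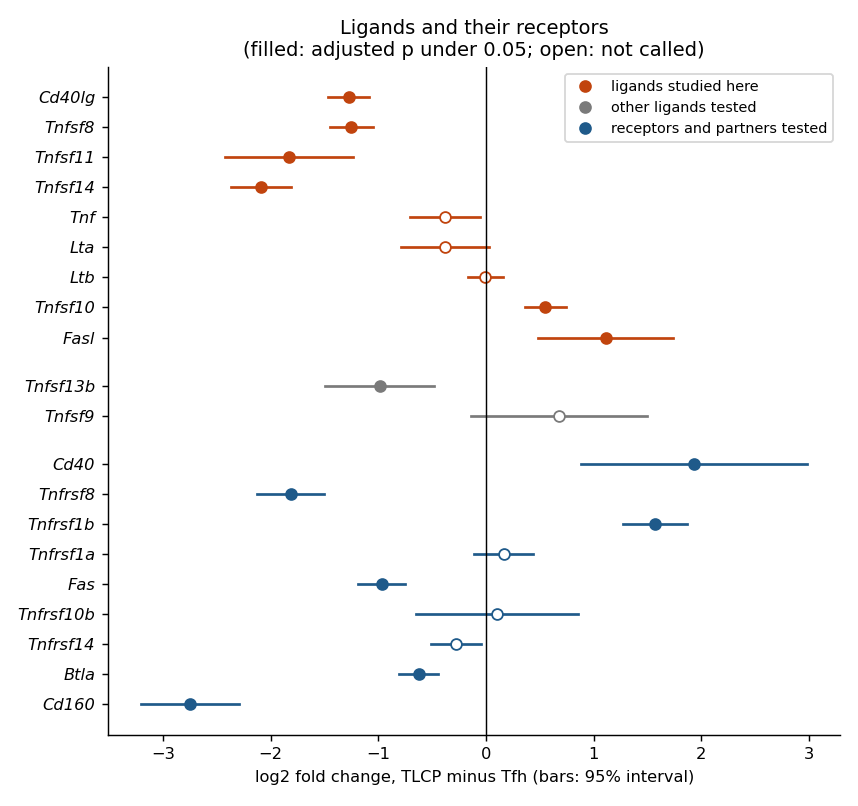
Log2 fold change (TLCP minus Tfh, linear axis) with its 95% interval for the 9 ligands (red), the other TNF superfamily ligands tested (grey) and the receptors and receptor partners tested (blue), filled where the adjusted p was under 0.05. The 4 lower ligands lie between -2.09 and -1.25, the interval of Ltb is centered near 0, and Fasl and Tnfsf10 lie above 0.

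Levels of different genes were compared on the authors' TPM, which are per length. In Tfh, Cd40lg led with 264 ± 61.5 TPM (SD, n = 6), followed by Ltb (177 ± 28.8), Tnfsf8 (167 ± 19.8), Tnfsf11 (123 ± 22.9), Tnfsf14 (48.3 ± 9.83), Tnf (30.4 ± 7.19), Lta (20.3 ± 6.94), Tnfsf10 (14.9 ± 1.92) and Fasl (3.83 ± 1.83). In this order the ranges of neighbors were separate only between Tnfsf11 and Tnfsf14 and between Tnfsf10 and Fasl. The other 6 neighboring pairs overlapped, and Ltb exceeded Tnfsf8 in 3 of 6 libraries. Cd40lg exceeded Ltb in 6 of 6.

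In TLCP the order began with Ltb at 216 ± 28.7 TPM. Cd40lg followed at 130 ± 6.38, then Tnfsf8 (85.4 ± 10.1), Tnfsf11 (41.3 ± 15.2), Tnf (27.8 ± 6.58), Tnfsf10 (26.7 ± 4.56), Lta (18.8 ± 4.24), Tnfsf14 (13.6 ± 2.59) and Fasl (10.2 ± 3.28). The ranges of Ltb, Cd40lg and Tnfsf8 did not overlap with their neighbors, while from Tnfsf11 down each overlapped the next. Tnf and Tnfsf10 were in this order in 4 of 6 libraries. Tnfsf14 was thus above Tnf in 6 of 6 Tfh libraries and stood next to last in TLCP.

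The ratio of Cd40lg to Ltb in TPM, taken within a library, was 0.465 to 0.748 in TLCP and 1.17 to 1.91 in Tfh, with no overlap. The ratio of Tnfsf8 to Cd40lg was 0.658 ± 0.0654 in TLCP and 0.654 ± 0.120 in Tfh. The ratio of Tnfsf14 to Cd40lg was 0.105 ± 0.0172 and 0.185 ± 0.0228. Ratios of this kind show unequal or equal change between the genes of a pair and do not depend on the scaling of libraries. Of the summed TPM of the 9 ligands, Ltb made up 37.9% ± 4.45 in TLCP and 21.0% ± 3.12 in Tfh, and Cd40lg 22.8% ± 1.56 and 30.8% ± 2.87. The sum itself was 533 to 621 TPM in TLCP and 674 to 1057 TPM in Tfh, without overlap.

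**Figure D3:**
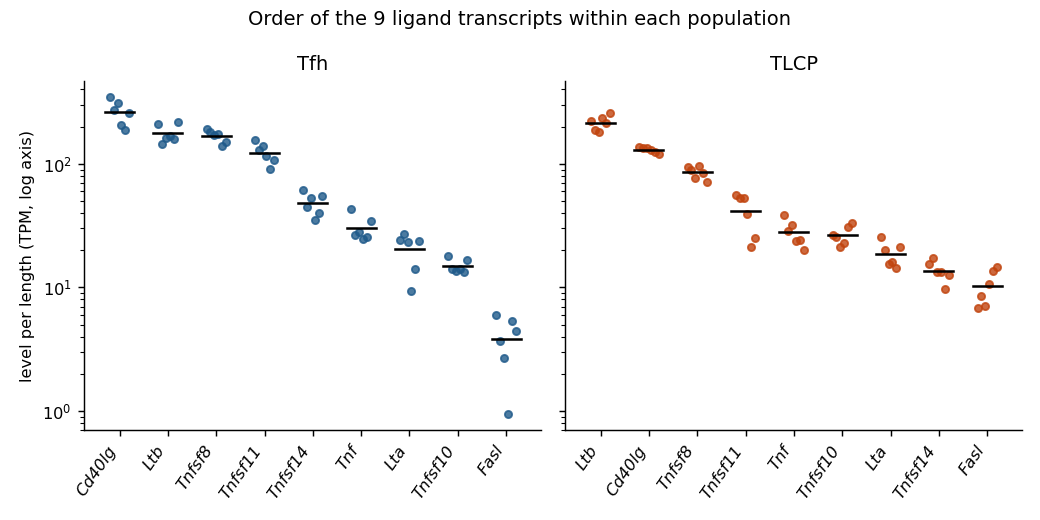
Level per length (TPM, log axis) of the 9 ligands in the 6 Tfh and the 6 TLCP libraries, 1 point per library, genes ordered by their mean (bars) within each population. Cd40lg leads in Tfh (264 TPM) and Ltb in TLCP (216 TPM), and Tnfsf14 stands in the fifth place in Tfh and next to last in TLCP.

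The CD4 T cell marker genes were lower in TLCP for 6 of 7 (all but Cd3e), with a summed level of 2490 to 2940 CPM against 3069 to 3419 CPM in Tfh. This depended on scaling, since 2 of 7 were lower with library totals alone and 0 of 7 on the log2(TPM + 1) scale. Set against that sum in each library, Cd40lg came to 20.5 to 27.8 CPM per 1000 CPM of CD4 T cell markers in TLCP and 39.7 to 52.0 in Tfh. The ranges stayed apart, and the fold was 1.94 in place of 2.42. On the same basis Tnfsf8 was 1.92-fold, Tnfsf11 2.88-fold and Tnfsf14 3.42-fold lower in TLCP, and Tnfsf10 was 1.84-fold and Fasl 2.76-fold higher. Ltb, with a mean of 125 CPM in both populations, was 1.25-fold higher in TLCP on this basis (40.9 to 53.5 against 33.0 to 43.2). Tnf and Lta were each 1.05-fold lower.

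Libraries numbered 1 to 3 and 4 to 6 deviated together over all genes, although no label names a batch. Tnfsf11 in TLCP averaged 49.0 ± 3.52 CPM in numbers 1 to 3 and 23.2 ± 7.72 CPM in numbers 4 to 6 (SD, n = 3 each), and in Tfh 136 ± 6.97 and 119.96 ± 14.8 CPM. Its log2 fold change was -1.47 within numbers 1 to 3 and -2.38 within numbers 4 to 6, lower and called in both. Tnf in TLCP averaged 21.8 ± 2.32 and 13.6 ± 2.08 CPM, and in Tfh 22.6 ± 3.16 and 23.3 ± 1.88 CPM. Its log2 fold change was -0.06 (adjusted p = 0.822) in numbers 1 to 3 and -0.79 (adjusted p = 0.00608) in numbers 4 to 6. The difference between the sets was not tested for any gene. Cd40lg was lower in numbers 4 to 6 in both populations, at 56.8 against 68.4 CPM in TLCP and 137 against 166 CPM in Tfh, and its log2 fold change was -1.28 in both sets. Ltb was higher in numbers 4 to 6 in both, at 129 against 119.8 CPM in TLCP and 139 against 111 CPM in Tfh.

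**Figure D4:**
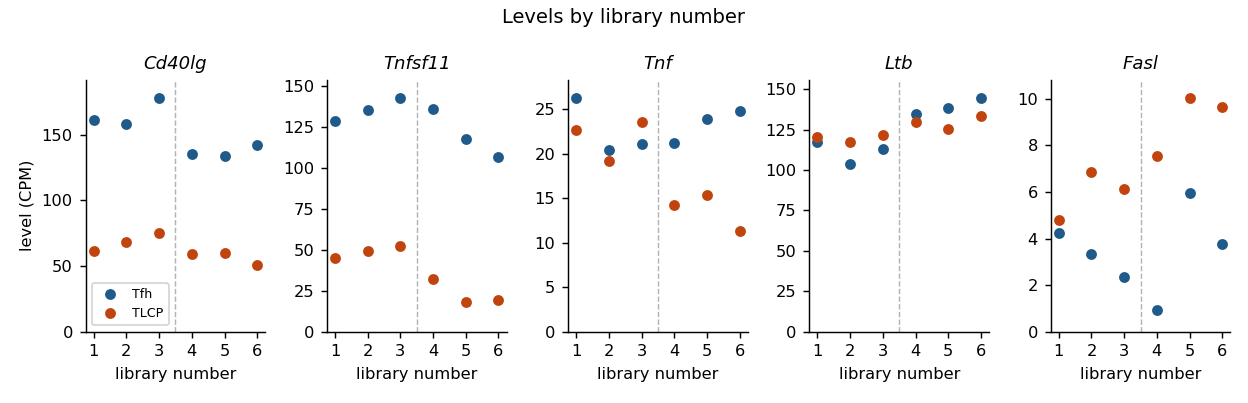
Level (CPM, linear axis from 0) of 5 ligands by library number in Tfh (blue) and TLCP (red), with a dashed line between numbers 3 and 4; the numbers are labels and not an order. Cd40lg and Tnfsf11 stay apart at every number, the TLCP points of Tnf lie below all its Tfh points in numbers 2 and 4 to 6, and Fasl is higher in TLCP at every number.

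The receptors that these ligands engage, with their partners, were examined next, and 9 of the 12 passed the filter. Of these, Tnfrsf1b and Cd40 were higher in TLCP, Tnfrsf8, Fas, Btla and Cd160 were lower, and Tnfrsf1a, Tnfrsf14 and Tnfrsf10b did not pass the test. Tnfrsf1b, the second TNF receptor, measured 175 to 208 CPM in TLCP and 44.9 to 96.0 CPM in Tfh. The populations were separate, and the level was 2.97-fold higher in TLCP (log2 fold change 1.57, SE 0.14, adjusted p = 1.10e-06). Tnfrsf1a, the other TNF receptor, stood at means of 21.6 ± 3.57 and 19.3 ± 2.93 CPM (log2 fold change 0.17, 95% interval -0.11 to 0.44).

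Tnfrsf8 encodes CD30, the receptor of the Tnfsf8 product. It measured 9.71, 14.5, 12.7, 8.89, 8.74 and 7.50 CPM in TLCP and 30.7, 36.5, 38.1, 34.4, 45.6 and 32.4 CPM in Tfh. Ligand and receptor were thus both lower in TLCP in every library, the receptor by 3.52-fold (log2 fold change -1.81, SE 0.15, adjusted p = 1.73e-08). Fas, the receptor of Fas ligand, measured 28.6 to 35.2 CPM in TLCP and 42.8 to 72.4 CPM in Tfh. It was lower in TLCP, the opposite direction from Fasl (log2 fold change -0.97, SE 0.10, adjusted p = 6.74e-07).

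Cd160 and Btla encode receptors that bind HVEM, as LIGHT does. Mean Cd160 was 3.52 ± 1.45 CPM in TLCP against 23.5 ± 1.87 CPM in Tfh (log2 -2.75, SE 0.22, adjusted p = 1.37e-08). Mean Btla was 242 ± 31.8 CPM against 373 ± 37.4 CPM (log2 -0.62, SE 0.087, adjusted p = 1.65e-05). Both were separate between the populations, although Btla was not called on the log2(TPM + 1) scale (-0.34, adjusted p = 0.0900). Tnfrsf14, the gene of HVEM itself, had a log2 fold change of -0.28 (adjusted p = 0.0644), and -0.28 with the library number as a block (adjusted p = 0.0296). Ltbr, the lymphotoxin beta receptor, was at most 1.12 CPM, Tnfrsf11a, the RANKL receptor, at most 0.600 CPM, and Tnfrsf11b, its decoy, had no read in any library. Those 3 were not tested.

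Cd40 is a B cell and myeloid gene. It measured 4.20, 8.16, 8.53, 6.54, 7.56 and 18.2 CPM in TLCP and 0.531, 1.91, 1.38, 1.43, 2.23 and 6.06 CPM in Tfh. Library 6 was the highest in both populations, and Tfh 6 lay above TLCP 1. Cd40 was 3.82-fold higher in TLCP (log2 fold change 1.93, SE 0.49, adjusted p = 0.00762). The B cell gene Ms4a1 was also highest in TLCP library 6, at 422 CPM against 106 to 209 CPM in the other 5. The part of B cell transcripts in the Cd40 value was not tested.

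Outside the 9, the family has 9 further ligand genes on the list, and 2 of them were tested. Tnfsf13b, the gene of the B cell survival factor BAFF, measured 3.25 to 4.29 CPM in TLCP and 4.94 to 11.6 CPM in Tfh. It was lower in TLCP in every library (log2 fold change -0.99, SE 0.24, adjusted p = 0.00361), but not called on the log2(TPM + 1) scale (-0.42, adjusted p = 0.126). Tnfsf9, the gene of 4-1BB ligand, stood at 2.07 ± 0.963 and 1.31 ± 0.466 CPM (log2 fold change 0.68, adjusted p = 0.194), and was called higher on the log2(TPM + 1) scale (0.69, adjusted p = 0.0348). The remaining 7, Tnfsf4, Cd70, Tnfsf12, Tnfsf13, Tnfsf15, Tnfsf18 and Eda, were at most 2.16 CPM in any library.

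A further 5 lists of the pathway were read by their counts. Over all genes tested, 16.8% were higher and 16.4% lower in TLCP. Where few genes of a list were called they are named, after their values were seen. Of 18 other TNF receptor genes, 12 were tested. Tnfrsf4 (OX40, log2 fold change 1.03), Tnfrsf18 (GITR, 0.49), Tnfrsf25 (1.14) and Tnfrsf13c (the BAFF receptor of B cells, 2.04) were higher in TLCP, and Tnfrsf26 (-0.77) and Cd27 (-0.35) were lower. On the log2(TPM + 1) scale 7 of 13 were higher and 0 lower. Over all 12753 genes tested on that scale, 3180 were higher and 473 lower. B cell marker genes were also higher in TLCP, as given above, and their part in the Tnfrsf13c value was not tested. Of the 22 signaling genes next to the receptors, 10 were higher and 1 lower, and 11 and 2 with the library number as a block. With library totals alone 13 were higher and 0 lower, and on the log2(TPM + 1) scale also 13 and 0. Birc3, an inhibitor of cell death that NF-kappaB induces, was at 119 ± 14.0 CPM in TLCP against 74.4 ± 4.76 CPM in Tfh (log2 fold change 0.67). Cflar, which blocks caspase 8 at death receptors, was at 133 ± 10.8 CPM in TLCP against 92.6 ± 7.51 CPM in Tfh (0.53). The adaptor gene Fadd was the lower one (-0.44), and it was not called with library totals alone or on the log2(TPM + 1) scale.

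Of 10 genes of ligand shedding and granule trafficking, 8 were tested, Rhbdf2 was higher (log2 fold change 0.90) and Rab27a (-0.75), Adam10 (-0.27) and Sppl2a (-0.20) were lower. With the library number as a block 2 were higher and 3 lower. Adam17, the protease known for releasing TNF, had a log2 fold change of -0.06 (95% interval -0.21 to 0.09). With library totals alone Rab27a was the only one of the 3 still lower, and the signs of Adam10 and Sppl2a turned on the log2(TPM + 1) scale. Of 13 RNA-binding regulators, Zc3h12d was higher (0.33) and Zfp36l1 (-0.29), Zfp36l2 (-0.22) and Elavl1 (-0.24) were lower. With the library number as a block 4 were higher, Zfp36 (0.39, adjusted p = 7.93e-05), Tia1 (0.35, adjusted p = 0.000358) and Ncl (0.15, adjusted p = 0.0356) besides Zc3h12d, and 3 lower. None of the 3 lower genes was called with library totals alone, where 4 of the 13 were higher, and the signs of Zfp36l2 and Elavl1 turned on the log2(TPM + 1) scale. All 20 transcription factor genes were tested, with 7 higher and 8 lower in TLCP, and 7 and 5 with library totals alone. Runx3, a factor of cytotoxic lineages, averaged 63.6 ± 9.75 CPM in TLCP against 18.1 ± 3.78 CPM in Tfh (log2 1.81, adjusted p = 5.51e-09). Tox, a factor of Tfh and of chronically stimulated T cells, was 93.8 ± 20.5 and 311 ± 11.6 CPM (-1.73, adjusted p = 4.08e-08).

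**Figure D5:**
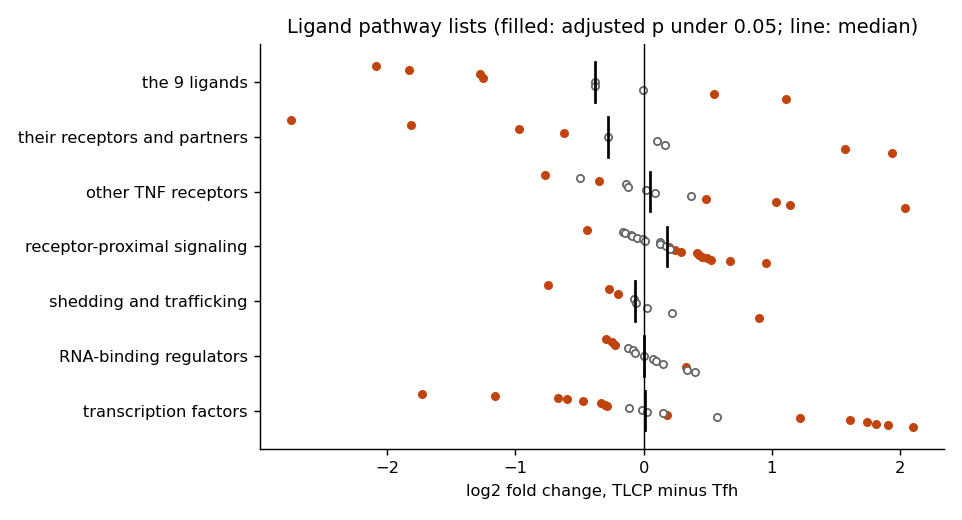
Log2 fold change (TLCP minus Tfh, linear axis) of every tested gene in the 9 ligands and 6 pathway lists, 1 point per gene, filled where the adjusted p was under 0.05, with the median of each list as a bar. The ligands have a median of -0.38 with points on both sides of 0, and the signaling genes one of 0.19.

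These counts moved with the scaling of the libraries. The median log2 fold change of all genes was -0.0041 with TMM, 0.17 with library totals alone and 0.25 on the log2(TPM + 1) scale. With totals alone 3199 genes were higher and 899 lower, against 2013 and 1969 with TMM. Of the 9 ligands the same numbers were called under all 3, with 2 higher and 4 lower.

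Likeness to Cd40lg was measured by the correlation of deviations from the population means over the 12 libraries, among 7823 genes of at least 10 CPM. The 3 genes most like it were Gpbp1l1 (Pearson r 0.92, Spearman rho 0.91), Tmx4 (0.91 and 0.90) and Ccnt2 (0.91 and 0.87). Of these, Gpbp1l1 was also lower in TLCP, at 119 ± 6.23 against 139 ± 7.90 CPM (log2 fold change -0.22, SE 0.061, adjusted p = 0.00844). Tmx4, which encodes a membrane thioredoxin-related protein, was lower too, at 74.7 ± 12.8 against 184 ± 31.9 CPM (log2 fold change -1.30, SE 0.13, adjusted p = 2.66e-06), and Ccnt2 was not called (0.23, adjusted p = 0.0815). Among the ligands, r and rho with Cd40lg were 0.68 and 0.72 for Tnfsf11, 0.58 and 0.55 for Tnfsf14, and 0.57 and 0.52 for Tnf. For Lta they were 0.42 and 0.40, and for Tnfsf8 0.37 and 0.20. They were -0.16 and -0.34 for Fasl, -0.56 and -0.63 for Tnfsf10, and -0.69 and -0.79 for Ltb. The libraries of numbers 1 to 3 and 4 to 6 share deviations over many genes, so these values describe the libraries.

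In the authors' deposited table, a DESeq2 comparison of the same libraries, the same 6 of the 9 ligands had an adjusted p under 0.05. Its log2 fold changes were -1.27 for Cd40lg, -1.24 for Tnfsf8, -1.82 for Tnfsf11, -2.08 for Tnfsf14, 0.56 for Tnfsf10 and 1.13 for Fasl. The adjusted p in the authors' deposited table was 0.0814 for Tnf, 0.177 for Lta and 0.983 for Ltb.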

How the data were processed

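RNA of 12 libraries, 6 of TLCP and 6 of Tfh cells sorted from spleen by magnetic beads and flow cytometry, was made into poly(A) libraries with the KAPA RNA HyperPrep kit, per the labels' protocols. The submitters' processing notes name the GRCm38 assembly, STAR 2.7.1a, DESeq2 1.30.1 and bcl2fastq 2.20 (annotation release: not given in the sources used here).

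Count files deposited by the authors give unscaled read counts of each gene, from which the column on the gene's strand was used. Classes that name no gene held 44.9% to 56.4% of reads and were left out, and opposite-strand reads were 2.83% to 4.19%. A gene with ribosomal RNA-like sequence, CT010467.1, held 12.9% to 30.9% of assigned counts. The authors' deposited table gives log2 fold changes, scores and p-values of their comparison, and a normalized signal per library, from which whole reads were recovered for 100% of values (tolerance 0.01 reads), all equal to the stranded counts. The authors also deposited TPM.

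The main test was that of edgeR 4.0.16 under R 4.3.3 (filterByExpr, TMM, robust quasi-likelihood fit, 2-sided, Benjamini-Hochberg over 12015 genes, threshold 0.05). Standard errors (SE) were taken as the size of the log2 fold change over the root of the F statistic, and intervals are 95%. Alternatives were RLE, totals alone, upper quartile, DESeq2 1.42.0, voom and limma 3.58.1 on log2(TPM + 1) and log2(TPM + 0.1), no filter, a mean of at least 5 CPM, unstranded counts, recovered reads, a replicate block, without ribosomal RNA genes, without immunoglobulin, B cell and plasma cell genes, without each library, without the 2 TLCP libraries richest in immunoglobulin, and numbers 1 to 3 or 4 to 6 only. The fitting script was tested on simulated data.

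The members, the gene lists and the tests were chosen with earlier results of these data known. The naming rule took the 9 ligands, all tested genes of the lists of other ligands and receptors, and the sort genes. It added the 2 genes of smallest p in each other pathway list and the 2 most abundant of each marker list. The 3 genes most like Cd40lg completed it. Marker genes of the rule are given only where used. Other genes of the lists were named outside this rule, after their values were seen. Log2 CPM for likeness used a prior count of 2. Gene positions are from GENCODE M21 with spans equal to those in the files, and promoter sequences are from RefSeq.

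Libraries with the same number correlated at 0.127 to 0.318 in their deviations from the population means, so numbers were taken to pair the samples, which is inferred and not labelled. Pairs of other numbers reached -0.247 to 0.209, and 9 of 12 libraries correlated best with their own number. The median was 0.0946 within numbers 1 to 3 or 4 to 6 and -0.13 across these sets. The series description gives 6 mice. The main test did not use the inferred pairing and took the 12 libraries as independent. Its p-values set the difference between the populations against the spread between libraries. The replicate block, which used the numbers, called 4453 genes against 3982. Every pair of libraries of a population differed by more than sampling noise, with a chi-square of at least 6.60 per degree of freedom.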

Additional observations from a re-analysis of the deposited data

Results flagged for a closer look

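For each of the 54 genes named by the rule, the highest and lowest library was compared with the other 5 of its population by the gap divided by the range (Dixon's test at its 95% critical value). Of 108 gene and population groups, 7 stood out, and chance gives about 1 in 20. Among the ligands this was Tnfsf8 in TLCP, where library 6 was low at 92.6 CPM against 123 to 139 CPM in the others. Among the receptors it was Cd40, where library 6 was high in both populations, at 18.2 CPM against 4.20 to 8.53 CPM in TLCP and 6.06 CPM against 0.531 to 2.23 CPM in Tfh. Tnfrsf4 was low in TLCP library 4, at 56.7 CPM against 72.1 to 76.6 CPM.

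Among the markers of other cells, the B cell gene Ms4a1 was high in TLCP library 6, at 422 CPM against 106 to 209 CPM. In Tfh library 4 the basophil gene Prss34 was at 3.34 CPM against 0 to 0.620 CPM, and the dendritic cell gene Zbtb46 at 5.89 CPM against 0.239 to 1.74 CPM.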

How the results depend on the processing

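Cd40lg, Tnfsf8, Tnfsf11, Tnfsf14 and Tnfsf10 kept their direction and stayed called under all 29 alternatives. Their log2 fold changes ranged from -1.34 to -0.99, -1.37 to -0.96, -2.38 to -1.47, -2.37 to -1.75 and 0.49 to 0.83. The number of ligands called higher was 1 instead of 2 in numbers 1 to 3 only, in numbers 4 to 6 only and without the 2 TLCP libraries richest in immunoglobulin counts, each time without Fasl. Leaving out each library in turn gave 3489 to 4009 genes called (3982 with all), 2 ligands higher in every case and 4 to 5 lower. The replicate block called 4453 genes and among the ligands changed the call of Tnf alone, giving 5 lower. Tnf was also called with voom (-0.45), without a filter (-0.39), without TLCP library 1 (-0.46) or 3 (-0.48) and in numbers 4 to 6 only (-0.79). Lta was called without Tfh library 4 (-0.50). In all, 6 of the 29 alternatives called Tnf and 1 called Lta. Both came closer to no difference with totals alone (Tnf -0.23, Lta -0.22) and on log2(TPM + 1) (-0.13 and -0.05). Without the 2 TLCP libraries richest in immunoglobulin counts Tnf was -0.27 and Lta -0.25.

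Ltb, never called, turned above 0 in 14 alternatives: RLE (0.0043), totals alone (0.17), DESeq2 (0.0045), voom (0.0033), the stricter filter (0.0025), the replicate block (0.00057), log2(TPM + 1) and log2(TPM + 0.1) (0.29 each), numbers 1 to 3 only (0.11), and 5 of the fits without 1 library (range over all 12, -0.058 to 0.036). The cause was not tested. Depth limits Fasl, which rested on 6 to 48 reads in Tfh libraries, and the receptors and ligands under 1 CPM.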
